A study of Homo sapiens with 6 samples.

Results

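The genes described here are 9 developmental transcription regulators, PAX2, PAX7, PAX8, LHX1, SIX2, WT1, EYA1, FOXD1 and SALL1, out of 56794 named genes in the table. They were chosen by the measured group means of this comparison, so their values are given as a description and carry no test made on them. RNA was sequenced from 6 libraries of HEK293, an established human embryonic kidney cell line that here expresses luciferase, grown in the same medium throughout. The 3 libraries called parental came from that reporter line, and the 3 called mutant are labelled as the reporter line with the CASP8AP2 gene deleted by CRISPR. The sources used here do not say where CASP8AP2 was cut, whether the mutant line grew from 1 clone or whether replicates were separate cultures, so p-values measure the spread between these libraries, which may be technical. Summed over its 6 transcripts CASP8AP2 RNA had 15.9 in the parental and 15.7 in the mutant group, and its smallest deposited p was 0.142. That is a log2 ratio of -0.01 for the libraries labelled mutant, and the deletion could not be checked from these values, so parental and mutant stand below for the groups as labelled. Levels are abundances per length, as the authors' group means with their added 1 taken off, and gene levels are sums over transcripts. Each group's abundances summed to 496162 over all transcripts, and log2 ratios compare mutant with parental sums, each with 1 added.

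In the embryo the kidney forms from intermediate mesoderm, where PAX2, PAX8 and LHX1 act early. SIX2 keeps the nephron progenitors of the cap mesenchyme undifferentiated, with EYA1, SALL1 and WT1 in the same cells, while FOXD1 marks the stromal progenitors around them. PAX7 belongs to the same paired-box family, is closest to PAX3 and is better known for muscle stem cells, neural crest and the dorsal neural tube.

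One of the 9 genes stood apart. PAX7 was 11.7-fold lower in the mutant libraries by raw sums, a log2 ratio of -1.66 with 1 added. No other member reached a 2-fold difference on the log2 scale with 1 added. PAX8 was at 0.00964 and 0.114, a raw ratio of 11.8 that rests on 2 parental and 27 mutant reads and that the added 1 reduces to a log2 ratio of 0.14. SIX2, LHX1, WT1, SALL1 and PAX8 lay within 0.25 of a log2 ratio of 0, FOXD1 and EYA1 were somewhat lower and PAX2 somewhat higher. Of the 9 members 6 had a log2 ratio below 0 and 3 above it, and the median was -0.08, beside -0.01 over the 14856 genes with a sum of at least 1 in either group. At that level 8 members were kept, and PAX8 was not. Among those 14856 genes 1.61% were lower by 2-fold or more and 1.51% higher, beside 1 and 0 of the 8 members kept. In bulk RNA, fewer cells with a transcript and less of it per cell cannot be told apart.

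**Figure D1:**
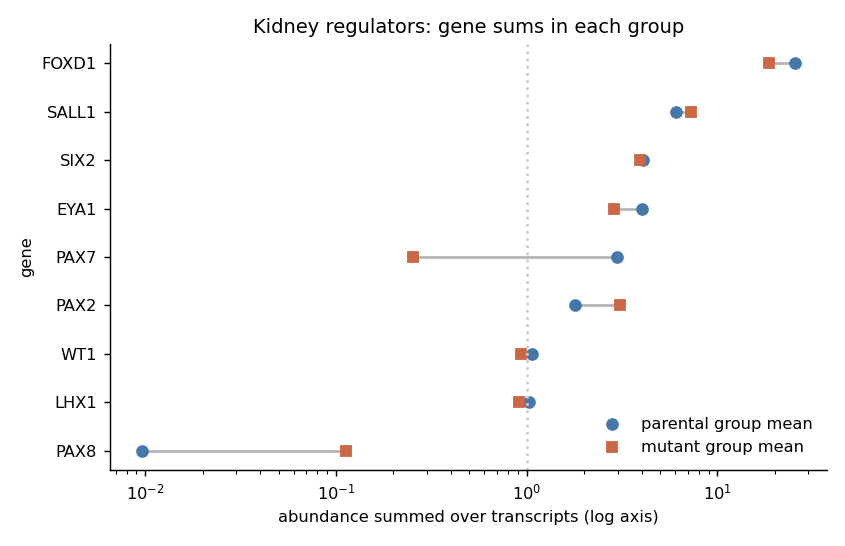
Gene sums of abundance (log axis) in the parental (circles) and mutant (squares) groups, as group means. PAX7 runs from 2.96 to 0.254 while SIX2, LHX1 and WT1 nearly coincide, PAX8 lies far to the left of 1 in both groups, and the order of the other genes by level is the same in both groups except that PAX2 passes EYA1.

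The promoters of PAX7, the member that fell, and SIX2, the member closest to an even ratio, are shown side by side because they differ in the GC boxes (GGGCGG on either strand, in capitals) that SP-family factors bind. Both run from 250 bases before to 50 after the RefSeq start (GRCh38.p14, the genome the deposited files also use as hg38) and read 5′ to 3′ along the gene. PAX7 lies on the plus strand at chr1:18630596-18630895, and SIX2 on the minus strand at chr2:45009403-45009702. The PAX7 window ends before the starts of all its GENCODE transcripts, and PAX7-203, the form that fell, starts only at 18631521. Its letters therefore do not describe the sequence around that start, while the SIX2 window spans the annotated start of SIX2.
PAX7: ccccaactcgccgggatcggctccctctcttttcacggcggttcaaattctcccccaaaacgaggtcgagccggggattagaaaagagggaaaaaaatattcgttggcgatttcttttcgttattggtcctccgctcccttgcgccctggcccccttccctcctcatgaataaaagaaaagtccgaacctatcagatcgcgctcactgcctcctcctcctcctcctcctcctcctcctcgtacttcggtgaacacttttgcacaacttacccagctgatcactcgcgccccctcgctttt
SIX2: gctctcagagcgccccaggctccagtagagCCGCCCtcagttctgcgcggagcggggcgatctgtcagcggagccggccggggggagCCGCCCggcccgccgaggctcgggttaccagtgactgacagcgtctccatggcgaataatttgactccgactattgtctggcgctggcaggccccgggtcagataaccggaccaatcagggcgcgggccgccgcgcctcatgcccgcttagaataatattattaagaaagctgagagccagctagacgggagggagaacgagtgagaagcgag
The SIX2 window held 2 GC boxes and the PAX7 window 0, and 44.95% of 35116 RefSeq promoter windows of 300 bases held at least 1. FOXD1 held 1, PAX8 and both PAX2 windows held 0, and 1 of the 4 WT1 windows held 1. PAX7 held 21 CG dinucleotides and SIX2 29, against a median of 14 over all windows and an upper quartile of 28. Neither held TATAAA on either strand, which 11.5% of windows do. A match of letters is a description and not a bound site, and a missing match says nothing of the factors. A RefSeq promoter was matched for 6 of the 9 members.

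PAX7 (ENSG00000009709, chromosome 1, 18631006 to 18748866, plus strand, hg38) had a sum of 2.96 in the parental and 0.254 in the mutant group, a log2 ratio of -1.66. These sums stood for about 696 parental and 116 mutant reads. Read numbers given with "about" here and below assume that every library of a group held the group mean. PAX7-203, its longest messenger RNA with 9 exons and 5538 bases, made up 92.9% of the parental sum and fell from 2.75 to 0.160. It is the only one of 63 tested member transcripts that the authors' deposited table calls, with an adjusted p of 0.0251 and an unadjusted p of 2.18e-06. Of all tested transcripts 0.00854% were called as lower there, and since the members were picked from this contrast the call is not separate evidence.

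How closely the libraries of a group ran together could be read from the deposited p-value, because that p-value follows from the logs of 3 against 3 library values under a common variance. Given both means and that p-value, each parental library must have held between 2.54 and 2.97 of PAX7-203, and each mutant library between 0.0938 and 0.228. The groups therefore did not overlap, and the difference of -1.69 on the log2 scale carries an implied standard error of about 0.04. The other 2 PAX7 transcripts, both of 8 exons and with an earlier end, were low in both groups. PAX7-202 had 0.152 in the parental and 0.00349 in the mutant group, with a deposited p of 0.0582. PAX7-201, which starts upstream of the others, had 0.0581 and 0.0906, so that it made up 1.96% of the parental and 35.7% of the mutant sum. The share of PAX7-203 was 62.9% in the mutant group, where the whole gene stood on about 116 reads.

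Over the 2 group means, the genes whose levels were nearest to those of PAX7 were ZIK1 (3.06 parental, 0.216 mutant), the long non-coding RNA LINC02154 (2.76 and 0.228) and ZNF44 (2.69 and 0.276). ZIK1 and ZNF44 encode zinc finger proteins. With 2 group means per gene, this likeness says only that the levels are close. The protein-coding neighbours of PAX7, KLHDC7A and TAS1R2, were below 0.02 in both groups.

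PAX2 (chromosome 10, 100735603 to 100829941, plus strand), the early regulator of the nephric duct and nephron, had 1.80 in the parental and 3.08 in the mutant group, a log2 ratio of 0.54. It stands on about 274 parental and 1071 mutant reads. Its most abundant forms, PAX2-202 (0.561 parental and 1.07 mutant) and PAX2-201 (0.576 and 0.726), had deposited p-values of 0.289 and 0.353. The sharpest contrast lay in PAX2-203, which carries 1 exon more than PAX2-201 between the same ends. PAX2-203 stood at 0.0809 in the parental and 0.508 in the mutant group, with 0.0160 as p and 0.646 as adjusted p in the authors' deposited table. That p-value limits every parental library to at most 0.243 and every mutant library to at least 0.273, so the groups did not overlap for this form. PAX2-205, another form of 11 exons, lay the other way, at 0.323 and 0.182 (deposited p 0.558). Assignment of reads to forms that share most exons is uncertain. The intron-retaining PAX2-206 had 0.190 and 0.314, and PAX2-208 0.0693 and 0.281.

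PAX8, which acts with PAX2 in the kidney and is also a thyroid regulator, was near the limit of detection. Its sums were 0.00964 and 0.114, and its reads could be counted library by library. The parental libraries held 2, 0 and 0 reads and the mutant ones 16, 10 and 1, each from the deepest library to the shallowest. Scaled to the reads on transcripts in each library (RPM) these were 0.131, 0 and 0 in the parental group (mean 0.0436 ± 0.0754, SD, n = 3). In the mutant group they were 0.278, 0.666 and 0.0752 (mean 0.340 ± 0.300, SD, n = 3). The shallowest mutant library lay below the deepest parental one, so the groups overlapped. The 27 mutant and 2 parental reads, set against 85.8 and 36.1 M (mega) reads, give a ratio of 5.68 with a 95% exact interval of 1.43 to 49.3, which covers counting error only and not the spread between libraries. The mutant sum was spread thinly over PAX8-206 (0.0374), PAX8-205 (0.0200), PAX8-201 (0.0185) and the intron-retaining PAX8-210 (0.0163). PAX8-AS1, which overlaps PAX8 on the opposite strand, held 7 parental and 11 mutant reads.

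**Figure D2:**
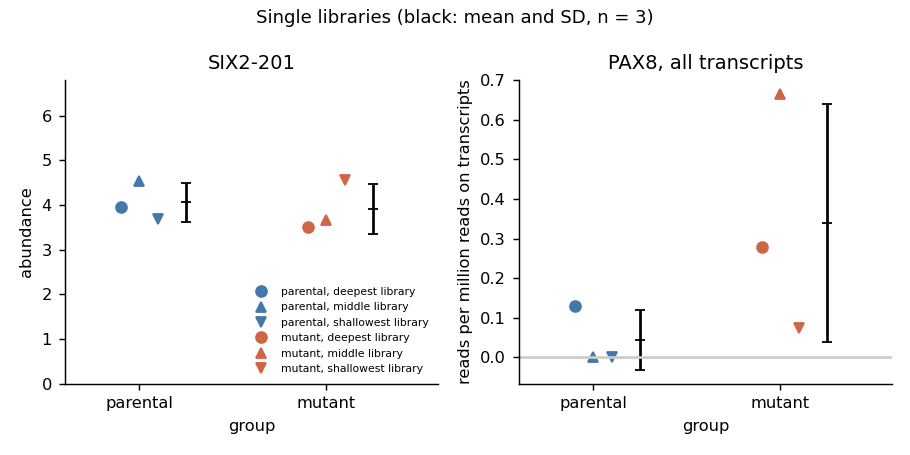
Single libraries of each group, with markers for the deepest, middle and shallowest library and the mean and SD (n = 3) in black. SIX2-201 abundances (left) run from 3.68 to 4.53 in the parental and from 3.51 to 4.55 in the mutant libraries, and PAX8 RPM values (right) are 0 in 2 of 3 parental libraries and run from 0.0752 to 0.666 in the mutant ones.

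SIX2 (chromosome 2, 45005161 to 45009430, minus strand), the gene of nephron progenitor renewal, has 1 annotated transcript, and its reads in each library could be recovered in full. From the deepest library to the shallowest, the parental libraries held 165, 143 and 92 reads and the mutant ones 550, 150 and 165. As abundances these were 3.96, 4.53 and 3.68 in the parental group, with a mean of 4.06 ± 0.433 (SD, n = 3). The mutant libraries had 3.51, 3.67 and 4.55, with a mean of 3.91 ± 0.563 (SD, n = 3). The values interleave, and the means differed by less than the SD of either group (log2 ratio -0.04, deposited p 0.722). A ratio of the pooled reads, scaled to depth, was 0.909 with a 95% interval of 0.807 to 1.03 that covers counting error only. SIX3, its neighbour and relative, was at 0.0976 in the parental and 0.0136 in the mutant group.

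EYA1 (chromosome 8, 71197433 to 71592025, minus strand) encodes the phosphatase and coactivator that works with SIX2 and its relatives. Its sum was 4.04 in the parental and 2.86 in the mutant group, a log2 ratio of -0.38. The largest share belonged to EYA1-220, a processed transcript not annotated as coding, at 1.82 and 1.15 (deposited p 0.625). The coding EYA1-205 had 1.01 and 0.611 (deposited p 0.275). EYA1-203, also coding, had 0.533 and 0.173, with 0.0203 as p and 0.685 as adjusted p in the authors' deposited table. That p-value does not allow its groups to overlap, although the ranges possible for a single library, 0.325 to 0.756 and 0.00827 to 0.351, touch at their ends. EYA1-221 and EYA1-207 lay the other way, at 0.146 against 0.284 and 0.0649 against 0.158 in parental against mutant.

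**Figure D3:**
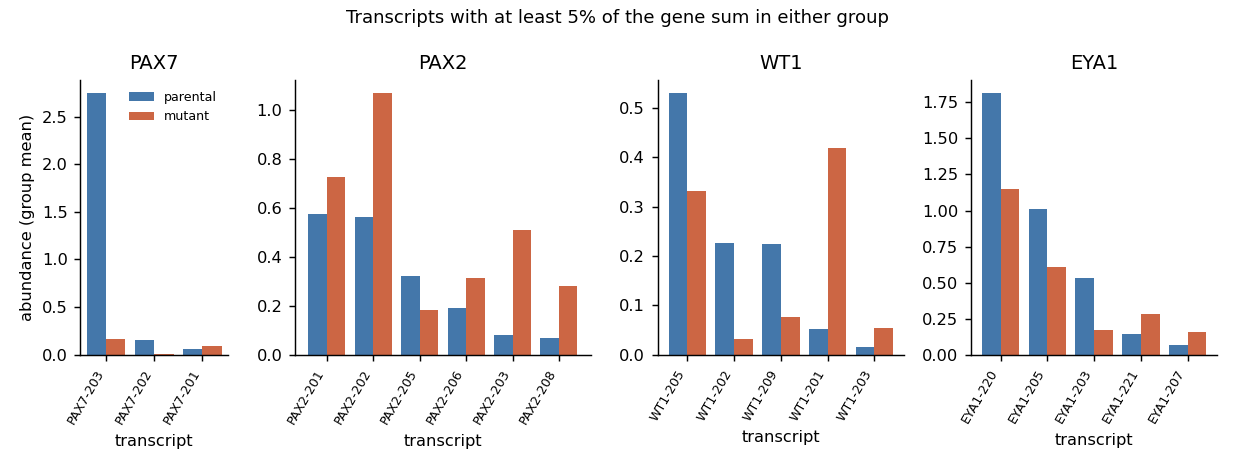
Abundance (group means, linear axes that differ between genes) of each transcript with at least 5% of its gene's sum in either group, parental and mutant side by side. The bar of PAX7-203 drops from 2.75 to 0.160, while in PAX2, WT1 and EYA1 some forms are higher and others lower in the mutant group.

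WT1 (chromosome 11, 32387775 to 32435630, minus strand), a zinc finger regulator of progenitors and later of podocytes, had 1.06 and 0.932 in the parental and mutant groups. The sum stood on about 130 and 284 reads. Its forms lay further apart than the sums. WT1-205 went with 0.531 and 0.332 (deposited p 0.532), WT1-202, a form marked for nonsense-mediated decay, with 0.226 and 0.0312 (p 0.245), and WT1-201 with 0.0524 and 0.419 (p 0.116), all in the authors' deposited table. WT1-209 had 0.224 and 0.0758, and WT1-203 0.0152 and 0.0534. None of these was called. WT1-AS, which overlaps the gene on the opposite strand, had 0.441 and 0.121 (deposited p of its main form 0.0773). The sources used here do not say whether counting used strand, so reads of WT1 and WT1-AS may be mixed where the genes overlap.

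SALL1 (chromosome 16, 51135975 to 51151367, minus strand), a zinc finger regulator needed for ureteric bud outgrowth, had 6.03 and 7.28, a log2 ratio of 0.24. Its main form SALL1-201 had 4.55 and 5.22 (deposited p 0.779), SALL1-202 1.12 and 0.945 (p 0.481) and the short SALL1-203 0.276 and 0.544 (p 0.0615). LHX1 (chromosome 17, 36936785 to 36944612, plus strand), the LIM-homeodomain regulator of the nephric duct and renal vesicle, had 1.02 and 0.910, with LHX1-201 at 0.775 and 0.610 (deposited p 0.659). Its shorter forms were low, with LHX1-202 at 0.0990 and 0.115, LHX1-203 at 0.0818 and 0.0810 and LHX1-205 at 0.0666 and 0.0875. The divergent RNA LHX1-DT had 1.73 and 0.874 (deposited p of its main form 0.0503), a log2 ratio of -0.54 beside -0.08 for LHX1.

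FOXD1 (chromosome 5, 73444827 to 73448527, minus strand) was the most abundant of the 9 in both groups, at 25.4 in the parental and 18.6 in the mutant libraries, a log2 ratio of -0.43. This forkhead gene of stromal progenitors has a single-exon messenger RNA, FOXD1-202, which made up 97.2% of the parental sum. FOXD1-202 had 24.7 and 18.4, with 0.0165 as p and 0.649 as adjusted p in the authors' deposited table. That p-value does not allow the parental and mutant libraries to overlap, although their possible ranges touch, 21.2 to 28.4 against 15.65 to 21.3. The non-coding FOXD1-201 was recovered as whole reads, 9, 2 and 3 in the parental and 11, 2 and 1 in the mutant libraries, from the deepest to the shallowest. Its abundances were 1.17, 0.344 and 0.651 in the parental group (mean 0.723 ± 0.419, SD, n = 3) and 0.381, 0.266 and 0.150 in the mutant one (mean 0.266 ± 0.116, SD, n = 3), and they overlapped. FOXD1-AS1, which overlaps FOXD1 on the opposite strand, had 12.6 and 8.25, a log2 ratio of -0.56. The deposited p of 0.969 belongs to its main form and not to that sum. As for WT1 and WT1-AS, reads of FOXD1 and FOXD1-AS1 may be mixed where the genes overlap.

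A p-value too small for the groups to overlap (below 0.0474) was thus held by 4 of the 63 tested member transcripts, PAX7-203, PAX2-203, FOXD1-202 and EYA1-203. Among all 140552 tested transcripts 5.57% held one, and 5.79% held a p under 0.05, as the same 4 member transcripts did. The members' share is near that background.

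**Figure D4:**
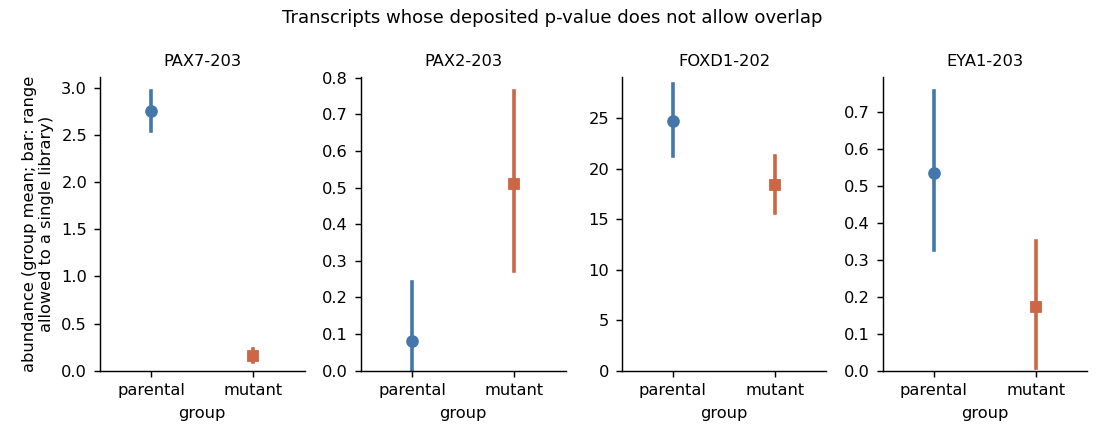
Group means (points) of the 4 member transcripts whose deposited p-value does not allow the groups to overlap, with bars for the range of abundance that the means and the p-value allow a single library. For PAX7-203 the bars, 2.54 to 2.97 and 0.0938 to 0.228, are far apart, and for FOXD1-202 and EYA1-203 their ends touch.

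By parental level the order was FOXD1, SALL1, SIX2, EYA1, PAX7, PAX2, WT1, LHX1 and PAX8. SIX2 (4.06) and EYA1 (4.04) differed by less than the spread of the SIX2 libraries. WT1 (1.06) and LHX1 (1.02) lay next to each other, and their spread over libraries was not recovered. FOXD1 lay above 78.0% of the kept genes by level in its higher group, SALL1 above 43.3% and LHX1 above 0.478%. The median kept gene had a level of 9.15, so 7 of the 8 kept members were less abundant than that.

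The relatives of these genes differed less than PAX7 did. Among other PAX genes PAX6, the eye and brain regulator, had 13.6 and 13.5 in parental and mutant libraries, PAX3, the closest relative of PAX7, 6.51 and 6.88, and PAX9 2.45 and 2.71, and 0 of these 3 kept genes differed by 2-fold. PAX1 was low, at 0.0596 and 0.251 (deposited p of its main form 0.000288, adjusted 0.219). Of 7 kept relatives of SIX2 and EYA1 0 did: SIX5 had 9.68 and 11.4, EYA2 7.09 and 6.01, and EYA3 6.63 and 5.81. Of 14 kept LIM-homeodomain, SALL and forkhead relatives 1 was higher by 2-fold, SALL4, a stem cell factor, at 1.79 and 5.17 (deposited p of its main form 0.0275). SALL2 had 10.1 and 15.6, LHX2 12.7 and 12.8 and ISL1 5.20 and 4.05. FOXC1, which is expressed in the nephrogenic mesenchyme, had 64.8 and 37.3 (deposited p of its main form 0.0287). Among 9 kept protein partners 0 differed by 2-fold, with PAXBP1, which links PAX3 and PAX7 to histone methylation, at 20.2 and 36.0 and BASP1, a corepressor of WT1, at 138.9 and 100.5. WTAP, named for its binding to WT1, had 55.0 and 47.9, and SSBP4, of the LIM-domain cofactor complex, 27.2 and 34.1 (deposited p of its main form 0.993). Of the 9 partners 5 had a log2 ratio below 0 and 4 above. SSBP2, of the same family as SSBP4 and chosen after its values were seen, had 20.4 and 11.8 (deposited p of its main form 0.0162, adjusted 0.646). The main transcript of none of these genes was called in the authors' deposited table.

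In the kidney compartments in which the members act, the counts of genes that differed by 2-fold were 0 of 13 kept nephron progenitor and induction genes (median log2 ratio 0.06), 0 of 10 ureteric bud genes (-0.01), 0 of 9 stroma genes (-0.08), 0 of 5 podocyte genes (-0.33) and 0 of 5 tubule genes (-0.24). GDNF, the mesenchymal ligand that draws out the ureteric bud, lay at the threshold with 2.71 in the parental and 6.35 in the mutant group, a log2 ratio of 0.99 (deposited p 0.0481, adjusted 0.703), and was chosen for mention after its values were seen. HOXD10 and HOXD11, of the caudal HOX code, had 27.4 against 37.6 and 16.6 against 21.8 in parental against mutant. HOXA10 had 18.4 against 13.8 and BMP7, a survival factor of progenitors, 17.9 against 20.2. WNT11, a ureteric tip ligand, had 15.5 against 25.2, SLIT2 29.2 against 31.2, GATA3 17.5 against 20.7 and SPRY1 9.13 against 10.5. These are the 4 most abundant genes of the ureteric bud list, of which 5 kept genes had a log2 ratio above 0 and 5 below. GFRA1, the GDNF co-receptor, was among the latter with 2.81 against 1.86 (deposited p 0.00256, adjusted 0.416), and was also chosen after its values were seen. In the stroma list, which is FOXD1's own, ALDH1A2, an enzyme of retinoic acid synthesis, had 11.2 against 10.5, RARA 7.23 against 10.7 and TBX18 6.81 against 9.46. In the podocyte list CD2AP had 12.3 against 9.60 and KIRREL1 5.67 against 4.31. In the tubule list KRT8, a keratin gene, had 70.6 and 37.3 (deposited p 0.0178, adjusted 0.661). KRT18, another keratin gene of that list, had 57.7 and 51.8, a log2 ratio of -0.15. All 5 kept genes of that list had a log2 ratio below 0. Muscle and neural crest genes are from the setting in which PAX7 is best known. Of the 5 kept genes of that list, 3 had a log2 ratio below 0 and 2 above. SNAI2 was higher by 2-fold, at 4.18 and 11.1 (deposited p 0.0536). TFAP2A had 23.3 and 17.0 (deposited p 0.000396, adjusted p 0.239), MSX1 22.6 and 19.5 and TWIST1 7.10 and 6.53. The muscle genes of the list were near absent, with MYF5 at 0 and 0.0132, MYOG at 0 and 0.00307 and MSTN at 0.0828 and 0.0620. MYOD1 had 0.127 and 0 (deposited p 0.0160, adjusted 0.646), and the crest gene SOX10 0.0994 and 0.0515.

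**Figure D5:**
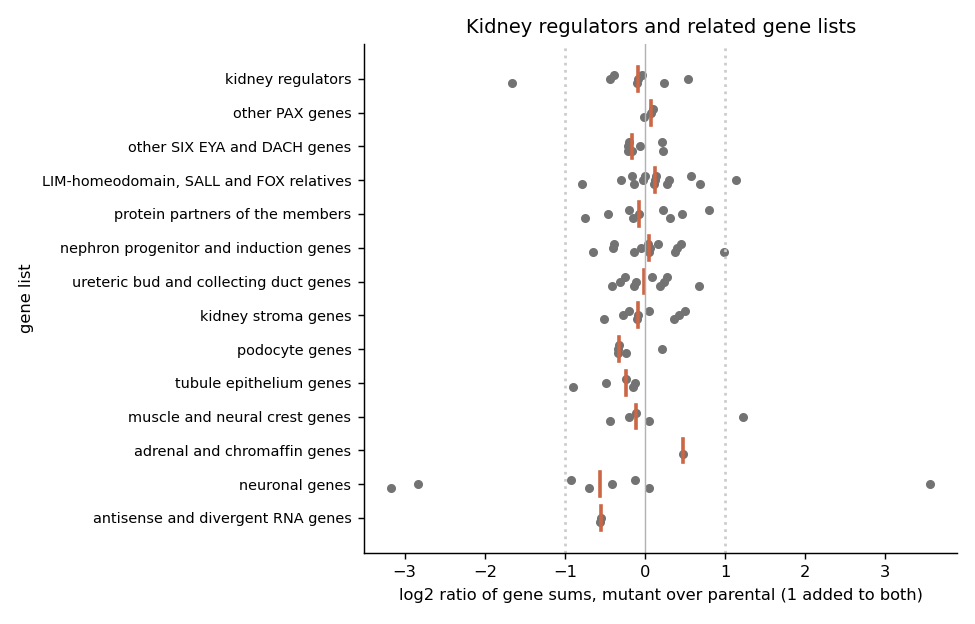
Log2 ratio of gene sums (mutant over parental, 1 added to both) for each gene with a sum of at least 1 in either group, by gene list, with list medians as vertical bars and dotted lines at a 2-fold difference. PAX7 is the point at -1.66 in the top row, and the widest row is that of neuronal genes.

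The kidney label was checked against markers. Of 14 tubule epithelium genes 7 were below 0.1 in both groups, and KRT8 and KRT18 made up most of the list's sum of 134 in the parental and 93.3 in the mutant group. LRP2 had 2.04 and 1.80 and EPCAM 2.02 and 1.16. Of 9 podocyte genes 3 were below 0.1 in both groups, of 10 adrenal and chromaffin genes 7, of 11 muscle and neural crest genes 4, and of 10 neuronal genes 2. HAND2, the 1 kept adrenal-list gene, had 1.93 and 3.08. Neuronal genes were the list with the largest differences, and 3 of its 8 kept genes differed by 2-fold. NEFL had 35.7 and 434, NEFM 8.63 and 0.0690, and INA 6.11 against a listed 0, with 1 of 3 parental libraries at 1.43 and the others at 8.30 and 8.59. The main forms of NEFL, NEFM and INA had adjusted p-values of 0.692, 0.523 and 0.652 in the authors' deposited table. ENO2, of the same list, had 27.3 and 28.3. Of the 8 kept neuronal genes 6 had a log2 ratio below 0 and 2 above. The part of the neuronal genes in the values of the 9 regulators was not tested.

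Of the protein-coding genes beside the members with a sum of at least 1, 0 differed by 2-fold. MRM1 beside LHX1 came nearest, at 0.970 in the parental and 1.88 in the mutant group, a log2 ratio of 0.55. SLF2 and HIF1AN beside PAX2 had 9.37 against 8.03 and 4.29 against 4.92 in parental against mutant, AATF next to LHX1 30.8 against 27.3, BTF3 beside FOXD1 526.9 against 547.4, and RCN1 and EIF3M on either side of WT1 156.9 against 154.7 and 146.4 against 171.2. SRBD1 beside SIX2 had 3.95 against 2.88, PSD4 beside PAX8 1.72 against 2.29 and CYLD beside SALL1 5.25 against 4.03.

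Depth differed between the groups. The mutant libraries held an estimated 57.5, 15.0 and 13.3 M reads on transcripts and the parental ones 15.3, 11.6 and 9.19 M reads. Ratios varied with the base composition of the transcripts. For FOXD1, whose transcript has 66.0% GC, the 500 genes of nearest GC content had a median log2 ratio of 0.27, against its own -0.43. For PAX2 (62.9% GC) that median was 0.21 against its own 0.54, for SIX2 (61.9%) 0.21 against -0.04, for EYA1 (38.9%) -0.16 against -0.38, and for PAX7 (54.0%) 0.08 against -1.66. The part of base composition in these values was not tested.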

How the data were processed

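Transcript abundances of 6 RNA libraries, 3 parental and 3 mutant, were given as group means in 1 table. Per the labels' protocols RNA was isolated with RNeasy and copied from random primers; per the submitters' processing notes bcl2fastq, STAR and Partek were used with hg38. The sources used here name no versions, annotation, filters or strand setting. Per the file headers the authors deposited, for each group, a score called LSMean (mean abundance plus 1), a ratio, a signed fold score, p-values and adjusted p-values (held as scores, because 62824 untested transcripts have none), and a signal called total counts, which is no read count.

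Values were processed with Python 3.11.15, pandas 2.3.3, SciPy 1.17.1 and numba 0.67.0. Transcripts were matched by name to GENCODE 29 (99.1%). Calls are the authors' adjusted p-values under 0.05; no test was made on the members. Mean times 3 times length is a sum, over libraries, of whole reads times a step; the 6 steps were read from transcripts with reads in 1 library. Among 6872 transcripts with 1 whole-read solution in each group (tolerance 1e-08), the equal-variance comparison of log(abundance + 1) gave the deposited p-value within 1e-06 for all 6872. Gene sums over several transcripts were accepted at a tolerance of 0.0001, with 1 solution in each group and under 0.05 expected by chance; of the members this held for PAX8 besides SIX2. Libraries are named by depth, since their replicate numbers are unknown. Recovery was tested on simulated data for single transcripts in whole reads only, where 283 of 283 were recovered. Recovery from gene sums over several transcripts, as used for PAX8 and PAX8-AS1, was not simulated.

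Named genes were all members, their transcripts with at least 5% of the gene sum, from each list the 4 most abundant genes and any that differed by 2-fold, the genes next to members and the 3 genes nearest to PAX7 in level; part of these are described, and some are not reported here. Members and lists were chosen with earlier results of these data known.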

Additional observations from a re-analysis of the deposited data

How the results depend on the processing

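The count of members lower by 2-fold was 1 (PAX7) with 0.1 added in place of 1, with the most abundant transcript, with ratios centred on the median gene (which lay at -0.03), without mitochondrial-genome genes and at a fold of 1.5. It was 0 among the 2 members with a sum of at least 5, since PAX7 is below that level. The count of members higher by 2-fold was 0 under each of these. No member changed the sign of its log2 ratio under them. PAX7 ran from -3.11 with 0.1 added to -1.63 when centred, and PAX8 moved from 0.14 to 0.96 with 0.1 added. Called member transcripts numbered 0 at an adjusted p under 0.01 and 4 at an unadjusted p under 0.05, and 1 with the adjusted p of the factor Type (0.0268 for PAX7-203) or adjusted over the 37102 transcripts with an abundance of at least 1 (0.0162). Nephron progenitor genes that differed by 2-fold numbered 1 (GDNF) in place of 0 with 0.1 added, when centred and without mitochondrial-genome genes, and neuronal genes 5 in place of 3 with 0.1 added. Leaving out replicates, other normalizations and other tools were not run. No paired analysis was possible because the deposited columns are group means that carry no replicate numbers. Depth limits PAX8 most, with 2 parental reads, and single libraries were not recovered for the sums of PAX2, PAX7, LHX1, WT1, EYA1, FOXD1 and SALL1.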
